A study of Mus musculus with 25 samples.

Results

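Copies of intracisternal A particle (IAP) elements, an endogenous retrovirus family of the mouse, were followed in RNA-seq libraries of 2-cell embryos made by in vitro fertilization (IVF) or by somatic cell nuclear transfer (SCNT). A repeat row of the count table was taken as an IAP copy when its class was LTR/ERVK and its subfamily name began with IAP. This rule found 25942 copies among the 1755056 repeat copies counted, in 25 of 1092 repeat subfamilies. Of these copies, 19248 lay on autosomes, 1906 on chromosome X, 4675 on chromosome Y and 113 on scaffolds. The comparisons used the autosomal copies, summed within each subfamily, because the SCNT embryos came from female nuclei while the IVF embryos were of both sexes.

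An IAP element consists of an internal region, which holds the retroviral gag and pol genes, between a pair of long terminal repeats (LTRs) that carry its promoter. In most mouse tissues IAP elements are kept silent by KRAB zinc finger proteins, which bring TRIM28 and the H3K9 methyltransferase SETDB1 to them, and by DNA methylation. IAP transcripts are known from the early mouse embryo, and many insertions differ between inbred strains. G9a, encoded by Ehmt2, and its partner GLP, encoded by Ehmt1, add mono- and dimethylation to H3K9, a modification that further enzymes extend to the trimethylated form.

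The 25 libraries formed 11 groups, each library being a pool of 5 to 10 wild-type embryos collected 28 to 29 h after insemination or activation, with females of 4 to 20 weeks as oocyte donors in the labels. The IVF group (4 libraries) joined C57BL/6N oocytes with DBA2 sperm, whereas every SCNT embryo joined a cumulus cell nucleus of a BDF1 (C57BL/6N x DBA2) female with an enucleated BDF1 oocyte, so the strain of the oocyte and the way the embryo was made cannot be told apart. Control SCNT embryos (2) and those injected with 10 pL of Kdm3a mRNA (SCNT-Kdm3a, 2) or Kdm4d mRNA (SCNT-Kdm4d, 2) at 1500 ng/µL were activated with cytochalasin B. KDM3A removes mono- and dimethylation from H3K9, and KDM4D removes di- and trimethylation. All other SCNT groups received latrunculin A in place of cytochalasin B. They were a control without other agents (CC_cont, 2), embryos kept for 8 h in 25 nM trichostatin A, or TSA, which blocks histone deacetylases (CC_T, 2), and embryos kept for 24 h in 1 µM of a G9a inhibitor, alone as CC_G (RK-701, spelled R701 in the labels, 3; A366, 2) or with TSA as CC_TG (RK-701, 2; A366, 2; UNC0638, 2).

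Each library held 6662727 to 21188688 reads on genes, and 5856 to 21830 reads on autosomal IAP copies, which equals 0.0575 to 0.103% of the gene reads. A level is given in CPM, reads per 1000000 gene reads after scaling between libraries. Libraries were labelled as embryos, and all 8 oocyte and 2-cell markers examined were found in every library, among them Oosp1 at 192 to 813 CPM and Zfp352 at 105 to 612 CPM. Of 10 cumulus cell markers, Ptx3, Inha, Foxl2 and Amh had a median of 0 over the libraries, Star stayed at 0.342 to 3.85 CPM, Fst ranged from 0 to 11.2 CPM, and Tnfaip6 was found in every library at 1.70 to 11.3 CPM. The summed level of the 10 was 5.33 to 12.9 CPM in IVF and 2.99 to 24.6 CPM over all libraries, highest in control SCNT replicate 2; its part in the IAP differences was not tested. The injected transcripts fitted the labels: Kdm3a stood at 3116 and 3466 CPM in SCNT-Kdm3a against 201 and 205 CPM in control SCNT, and Kdm4d at 12522 and 18521 CPM in SCNT-Kdm4d against 0.717 and 2.52 CPM. All repeats together took 9.71 to 10.9% of the counted reads in the IVF libraries and 11.8 to 15.7% in the untreated, TSA and A366 SCNT libraries. They took 9.22 to 11.4% in the co-treated libraries, so differences in IAP level are given beside those of all repeat subfamilies.

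IAP reads were spread over many copies but unevenly. At least 1 read fell on 10099 autosomal copies (52.5%), and none on the other 9149. The copy with the most reads held 9.42% of the 269526 autosomal IAP reads, and the 10 leading copies held 21%. Gene spans contained 22.4% of the autosomal IAP copies, against 43.5% of all autosomal repeat copies. By reads, 31.3% of the IAP reads were on copies inside gene spans, against 38.1% of the reads on other ERVK copies. Reads had been aligned only where they matched a single place in the mm10 genome, so copies that are nearly identical to another could receive few or none.

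Sequence could be shown for copies that coincide with an annotated gene start. Among 32851 RefSeq promoter windows (build GRCm38.p6, 250 bases before to 50 after the start), 45 overlapped an autosomal IAP copy, and 36 of those lay with at least 250 bases in 1 copy, 27 of them on the strand of the copy. Both windows printed here lie whole within an IAP LTR, of 1 Y-type and 1 LTR2-type subfamily, and show what such a promoter reads like; the capitals mark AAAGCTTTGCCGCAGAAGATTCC, the longest run of bases that these windows share. The run, of 23 bases, was searched on both strands and occurs in 3 of the 36 IAP windows (8.33%) and in 4 of all windows (0.0122%). Both counts include the 2 printed windows, which hold the run by its definition. The shares therefore do not measure whether it is more frequent in IAP windows. In both windows its first bases overlap the end of the letters AATAAA, the usual polyadenylation signal.
Gm52510, chr2:52131488-52131787, plus strand, in an IAPEY2_LTR copy: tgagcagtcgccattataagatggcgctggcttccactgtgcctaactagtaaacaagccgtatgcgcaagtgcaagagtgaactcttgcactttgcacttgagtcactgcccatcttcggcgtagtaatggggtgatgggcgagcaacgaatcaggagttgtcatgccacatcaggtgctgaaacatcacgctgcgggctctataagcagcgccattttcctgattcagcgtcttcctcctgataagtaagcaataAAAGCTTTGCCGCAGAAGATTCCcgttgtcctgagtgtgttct
Gm13391, chr2:6465829-6466128, plus strand, in an IAPLTR2a2_Mm copy: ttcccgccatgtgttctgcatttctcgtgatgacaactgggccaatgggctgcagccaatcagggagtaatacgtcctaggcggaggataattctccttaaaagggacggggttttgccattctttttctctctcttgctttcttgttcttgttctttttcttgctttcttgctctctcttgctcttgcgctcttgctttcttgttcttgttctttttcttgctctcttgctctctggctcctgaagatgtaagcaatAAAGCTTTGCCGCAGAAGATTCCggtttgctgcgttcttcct
The Gm52510 window was 50% G and C with 14 CpG pairs, and the Gm13391 window 46% with 9. The IAPEY2_LTR copy at chr2:52131450-52131814 held 257 reads over the 25 libraries: 0, 3, 4 and 5 in IVF, 8 and 2 in control SCNT, 6 and 23 in CC_cont, 39 and 11 in SCNT-Kdm3a, and 10 and 26 in CC_TG (UNC0638). The IAPLTR2a2_Mm copy at chr2:6465735-6466154 held 176 reads: 5, 15, 5 and 12 in IVF, 0 and 0 in control SCNT, and 10 and 0 in CC_cont. Replicates of one group differed widely at both copies.

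IAPEz-int, the internal region of the IAPEz elements, was the subfamily with most reads, at a mean of 275 CPM over the 25 libraries from 5292 copies. IAPLTR2a2_Mm followed with 134 CPM from 1532 copies, then IAPEY2_LTR with 43.6, IAPEy-int with 33.4 and IAPEY3-int with 33.3 CPM. Per kilobase of copies the order differed: IAPLTR2a2_Mm gave 0.265 CPM per kb and IAPLTR4 0.172, against 0.0264 for IAPEz-int, the lowest of these values. In the genome, LTRs of IAPLTR1_Mm, IAPLTR1a_Mm, IAPLTR2_Mm, IAPLTR2a, IAPLTR2a2_Mm and IAPLTR2b that adjoined an internal region adjoined IAPEz-int in 94.0 to 100% of pairs. IAP1-MM_LTR, IAPEY4_LTR and IAPLTR3 always adjoined the internal region of the same name, in 162, 29 and 66 pairs.

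How far a subfamily stood for many copies varied. In IAPEz-int the copy with the most reads held 1.39% of the subfamily's reads. By contrast, 1 copy held 70.5% of the reads of IAPEY4_I-int (chr3:93833392-93838033), 57.0% of IAPEY_LTR, 56.1% of IAPLTR2a2_Mm, 52.4% of IAPLTR2a and 50.3% of IAPEy-int. The remaining subfamilies, in order of level, were IAPLTR2_Mm, IAPLTR2b, IAPLTR1_Mm, IAPLTR1a_Mm, IAP-d-int, IAPLTR4, IAPEY3_LTR, IAP1-MM_I-int, IAPLTR3-int, IAPEY3C_LTR, IAP1-MM_LTR, IAPEY5_LTR, IAPEY5_I-int, IAPLTR4_I, IAPEY4_LTR, IAPLTR3 and IAPA_MM-int, which had 68 reads in all. All 25 subfamilies passed the filter of a mean of 1 read per library.

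**Figure D1:**
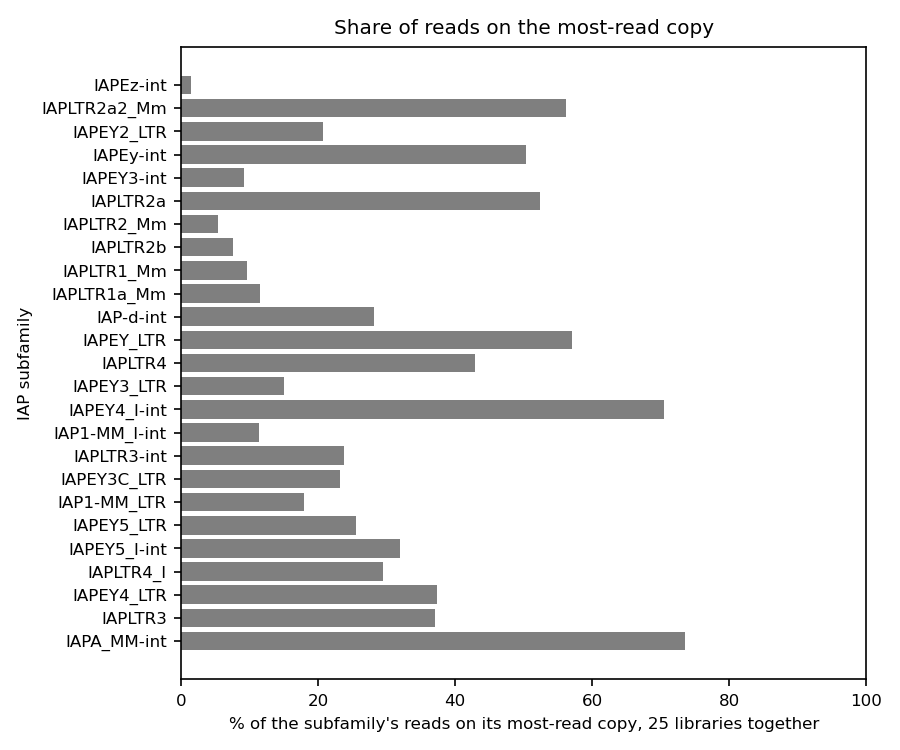
Share of each IAP subfamily's reads, summed over the 25 libraries, that fell on its copy with the most reads (horizontal axis, percent, from 0). IAPA_MM-int (73.5%, of 68 reads) and IAPEY4_I-int (70.5%) had the highest shares, while IAPEz-int, with 1.39%, was spread over many copies.

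The summed IAP level was lower in untreated SCNT embryos than in IVF embryos. It was 914, 970, 849 and 915 CPM in the IVF libraries (mean 912 ± 49.6, SD, n = 4), 802 and 780 CPM in control SCNT, and 677 and 800 CPM in CC_cont. None of the 4 untreated SCNT libraries reached the lowest IVF library. The log2 ratio of the means was -0.25 (two-sided exact permutation test, p = 0.0286, the smallest that 4 against 4 allows), and it was -0.50 when IAP reads were scaled to repeat reads in place of gene reads. Without CC_cont replicate 1 it was -0.20 and did not pass the exact permutation test. The ratio of IAP reads to those of the other 138601 ERVK copies showed the same order: 11, 10.7, 9.41 and 10.4% in IVF, 7.73 and 7.92% in control SCNT, and 7.56 and 8.35% in CC_cont (log2 difference -0.39, exact permutation p = 0.0286). MERVL-int and MT2_Mm, which mark the 2-cell stage, moved with it, from a mean of 12220 CPM in IVF to 6962 in control SCNT and 5304 in CC_cont; their part in the IAP difference was not tested.

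The treated groups fell on both sides of these values. SCNT-Kdm3a libraries had 1144 and 922 CPM, above both control SCNT libraries (log2 ratio 0.39), and SCNT-Kdm4d libraries had 782 and 736 CPM, overlapping them (log2 ratio -0.06, or 0.26 scaled to repeat reads). CC_TG (UNC0638) reached 1062 and 1041 CPM, above every IVF library and above CC_cont (log2 ratio 0.51). In contrast, CC_TG (RK-701) had 621 and 661 CPM and CC_TG (A366) 628 and 650 CPM, below both CC_cont libraries, each with a log2 ratio of -0.21. CC_G (RK-701) had the lowest group mean, from 543, 628 and 676 CPM (log2 ratio -0.26); these ratios of RK-701 and of the RK-701 and A366 co-treatments turned to 0.12, 0.091 and 0.14 when scaled to repeat reads. CC_G (A366), at 877 and 778 CPM, and CC_T, at 870 and 669 CPM, overlapped CC_cont. Single libraries moved these ratios: without CC_cont replicate 2 they were -0.14 for RK-701, -0.080 for CC_TG (RK-701) and -0.083 for CC_TG (A366), and without SCNT-Kdm3a replicate 1 that of Kdm3a was 0.22. For TSA the ratio turned to -0.14 without CC_T replicate 1 and to -0.056 without CC_cont replicate 1. With 2 libraries against 2 no exact permutation p can go below 0.333, and below 0.1 with 3 against 2, so none is given here. Other ERVK copies moved too, from a mean of 9268 CPM in CC_cont to 7867 in CC_G (RK-701), and from 10107 in control SCNT to 11727 in SCNT-Kdm3a. MERVL-int and MT2_Mm stood at a mean of 10749 CPM after Kdm3a and 8052 after Kdm4d injection, where the control had 6962. Against 5304 CPM in CC_cont, UNC0638 with TSA gave 10674, A366 alone 9831 and TSA alone 7247. RK-701 gave 5480 CPM alone and 5830 with TSA, and A366 with TSA gave 6650. The part of these repeats in the IAP differences was not tested. IAP reads were a mean of 7.96% of other ERVK reads in CC_cont, 7.82% in CC_G (RK-701), and 8.41% in CC_G (A366). They were 7.48% in CC_T, and 7.95, 8.28 and 10.6% in CC_TG (RK-701, A366 and UNC0638). Control SCNT had 7.83%, SCNT-Kdm3a 8.78% and SCNT-Kdm4d 8.68%.

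**Figure D2:**
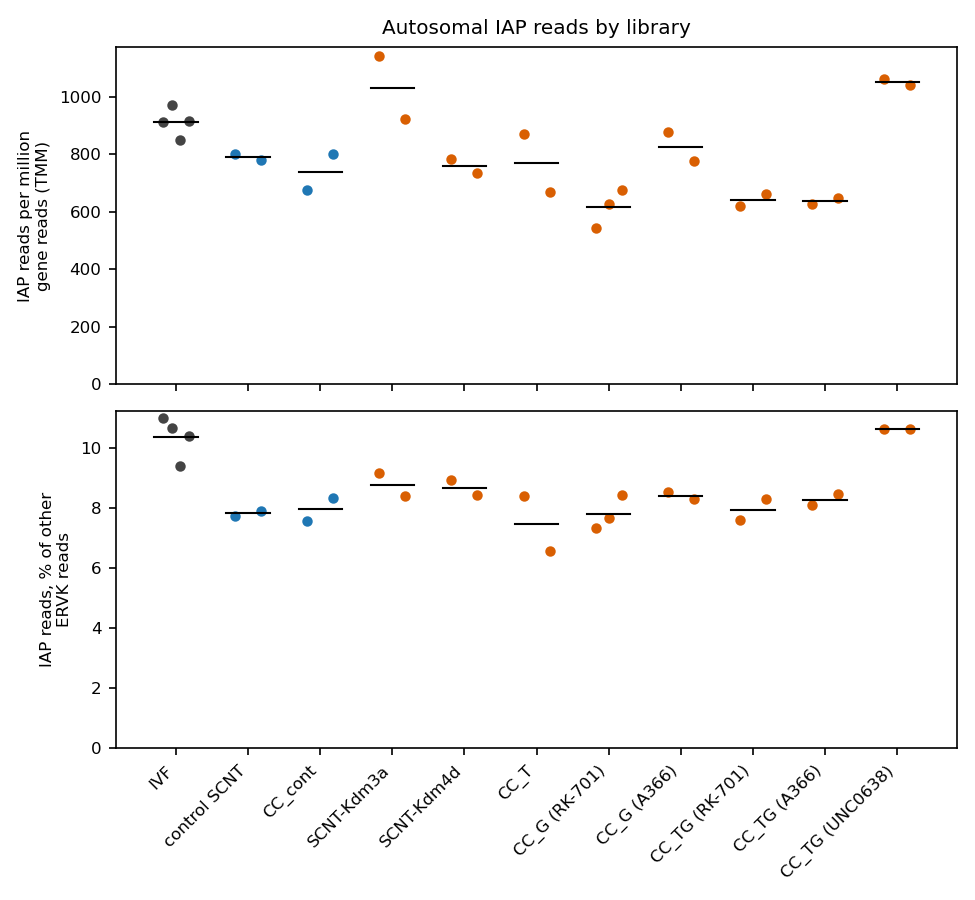
Summed level of autosomal IAP copies in each library (top, CPM of gene reads) and IAP reads as a percent of the reads on other ERVK copies (bottom), by group; dots are libraries (dark grey IVF, blue untreated SCNT, orange treated SCNT) and black bars are group means. The 4 IVF libraries lie between 849 and 970 CPM, and only SCNT-Kdm3a and CC_TG (UNC0638) hold libraries above that range.

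By subfamily, IAP1-MM and IAPEY4 were among those lower in untreated SCNT embryos, while IAPEz-int, the subfamily with most reads, did not pass the test. In the fit over all 846 repeat subfamilies, 11 IAP subfamilies were lower and 3 were higher in the 4 untreated SCNT libraries than in IVF (edgeR quasi-likelihood test, Benjamini-Hochberg adjusted p under 0.05, as for every subfamily called). Among all repeat subfamilies 7.8% were lower and 30.6% were higher. The median log2 difference was -0.37 over the IAP subfamilies and 0.37 over all of them. With library sizes taken from repeat reads the split was 0 higher and 18 lower, and without the copy with the most reads of each subfamily, an alternative chosen after seeing the data, it was 0 higher and 11 lower.

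IAP1-MM_I-int showed the greatest difference among the well-covered subfamilies. It had 66.5, 56.2, 50.9 and 53.6 CPM in IVF, 6.68 and 9.56 CPM in control SCNT, and 5.65 and 7.08 CPM in CC_cont, a log2 difference of -2.98 ± 0.24 (SE; edgeR adjusted p = 1.43e-09). All 21 SCNT libraries, treated ones included, lay below the lowest IVF library, at 4.53 to 20.2 CPM with a median of 7.57. Its LTR, IAP1-MM_LTR, had 15.1 to 20.8 CPM in IVF and 1.74 to 3.39 CPM in the untreated SCNT libraries (-2.93 ± 0.26; adjusted p = 1.24e-08), and again all 21 SCNT libraries stayed below IVF. No single IAP1-MM_I-int copy held more than 11.3% of its reads.

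IAPEY4_I-int had 36.5, 48.6, 33.9 and 33.1 CPM in IVF against 11.1 and 11.2 CPM in control SCNT and 12.5 and 7.54 CPM in CC_cont (-1.84 ± 0.20; adjusted p = 2.05e-07). Its level is largely that of the single chromosome 3 copy named above. Also lower were IAPEY4_LTR (-1.39), IAPEY3C_LTR (-1.26), IAP-d-int (-1.11), IAPEY5_LTR (-0.69), IAPLTR2b (-0.68), IAPEY3-int (-0.63) and IAPLTR2_Mm (-0.55). IAPEY3-int stood at 44.2 to 49.1 CPM in IVF, 28.8 and 38.5 CPM in control SCNT, and 25 and 26.3 CPM in CC_cont. The rare IAPA_MM-int, with 12, 4, 3 and 1 reads in IVF and 1, 0, 0 and 0 in the untreated SCNT libraries, had a rate 19.9 times higher in IVF (95% exact counting interval 3.19 to 826; edgeR adjusted p = 0.034), and its call was lost without IVF replicate 1, control SCNT replicate 2 or either CC_cont library. The IAPEY5_LTR call was lost without any 1 of the 8 libraries but CC_cont replicate 1, and the IAPEY4_LTR call without that library.

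In each of the 3 higher subfamilies a single copy held 50.3 to 57.0% of the reads.
IAPEY_LTR had 11.4, 11.3, 11.6 and 10.1 CPM in IVF, 18.3 and 18 CPM in control SCNT, and 17.8 and 21.8 CPM in CC_cont (0.77 ± 0.17; adjusted p = 0.000994). All 21 SCNT libraries lay above the highest IVF library, at 13.5 to 29.4 CPM. IAPEy-int rose from 22 to 31.8 CPM in IVF to 46.9 and 47.4 CPM in control SCNT and 34.4 and 34.7 CPM in CC_cont (0.60 ± 0.15; adjusted p = 0.00221). Without its leading copy the log2 difference was 0.33 for IAPEY_LTR (adjusted p = 0.274) and 0.05 for IAPEy-int (adjusted p = 0.877). IAPLTR2a2_Mm was only slightly higher, at 96 to 110 CPM in IVF against 110 to 143 CPM (0.27 ± 0.11; adjusted p = 0.0488), and with library sizes from repeat reads its sign turned (-0.13, adjusted p = 0.330). Its call was lost without IVF replicate 2, 3 or 4, control SCNT replicate 1 or CC_cont replicate 2.

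IAPEz-int did not pass the test: 312, 330, 248 and 317 CPM in IVF, 286 and 289 CPM in control SCNT, 257 and 293 CPM in CC_cont (-0.10 ± 0.13; adjusted p = 0.561), and the groups overlapped. IAPEY2_LTR also overlapped, with 41.2 to 48.9 CPM in IVF, 45.5 and 37 CPM in control SCNT, and 30.5 and 43.9 CPM in CC_cont. Between the 2 untreated SCNT groups, which differ in cytochalasin B or latrunculin A, edgeR called 0 IAP subfamilies (0% of all repeat subfamilies). DESeq2 also called 0, and 2 IAP subfamilies had an unadjusted p under 0.05. Without CC_cont replicate 1 there was 1.

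**Figure D3:**
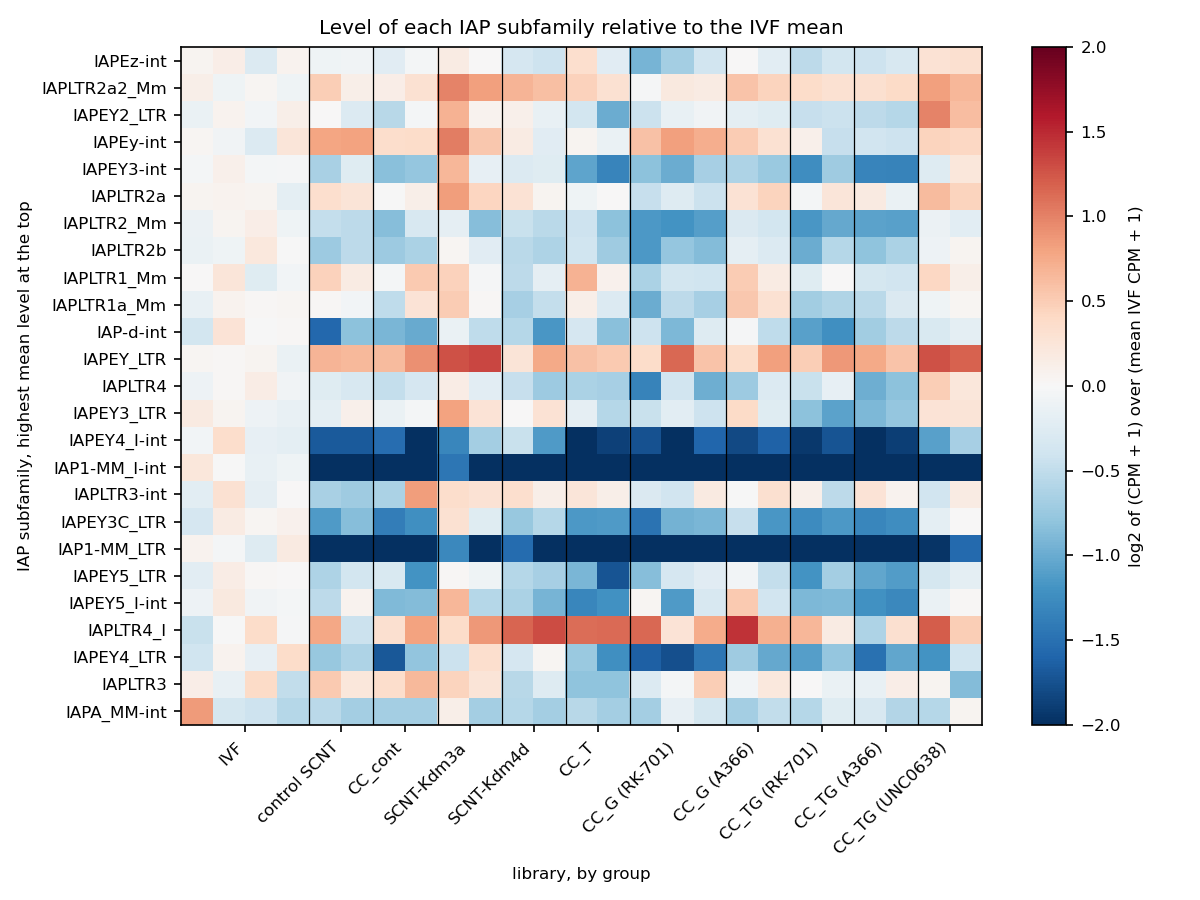
Level of the 25 autosomal IAP subfamilies (rows, ordered by mean level) in each of the 25 libraries (columns, by group), as log2 of the CPM plus a pseudocount of 1, relative to the IVF mean; blue is lower and red higher, with colours limited at 2 and -2. The rows of IAP1-MM_I-int, IAP1-MM_LTR and IAPEY4_I-int are blue in all 21 SCNT libraries, while IAPEY_LTR is red in all of them.

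Injection of Kdm3a mRNA raised 2 IAP subfamilies above control SCNT and lowered 0 (3.66% of all repeat subfamilies were higher and 0.827% lower). The count was 0 when only the compared libraries were fitted and 8 with library sizes from repeat reads. They were IAPEY3C_LTR, at 22.4 and 15 CPM against 7.65 and 9.48 CPM (1.13 ± 0.27; edgeR adjusted p = 0.014), and IAPLTR2a2_Mm, at 204 and 181 CPM against 143 and 110 CPM (0.60 ± 0.15; adjusted p = 0.0238). Of the 25 subfamilies 23 had a positive log2 difference and 13 an unadjusted p under 0.05, and the median was 0.56, against -0.07 over all repeat subfamilies. The replicates were unequal: IAPEY3-int had 72.7 and 40.4 CPM against 28.8 and 38.5 CPM, and IAPEY2_LTR 73.9 and 47.7 CPM against 45.5 and 37 CPM. Without SCNT-Kdm3a replicate 1 no IAP subfamily was called, without replicate 2 it was 6, and without either control SCNT library it was 1. IAPLTR2a2_Mm moved by 0.19 (adjusted p = 0.699) without its leading copy.

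After Kdm4d injection 1 IAP subfamily was higher and 1 lower than in control SCNT (0.946% of all repeat subfamilies were higher and 10.6% lower). IAPEY4_I-int rose to 27.6 and 16.9 CPM from 11.1 and 11.2 CPM (0.99 ± 0.28; edgeR adjusted p = 0.0257), still below every IVF library. IAPEy-int fell to 30.1 and 22.8 CPM from 46.9 and 47.4 CPM (-0.83 ± 0.21; adjusted p = 0.0203), into the range of IVF. The IAP median was 0.01 where that of all repeat subfamilies was -0.40, and with library sizes from repeat reads the split became 4 higher and 0 lower, with size factors of the relative log expression method 1 and 2. Both calls depended on single libraries: leaving out either control SCNT library or SCNT-Kdm4d replicate 2 left 0, and leaving out SCNT-Kdm4d replicate 1 left 1 lower. Set directly against SCNT-Kdm3a, SCNT-Kdm4d was lower in IAPEy-int (-0.84), IAPLTR1a_Mm (-0.91) and IAPEY_LTR (-0.80), 3 subfamilies where 4.73% of all were lower, and 0 when only the compared libraries were fitted. Without SCNT-Kdm3a replicate 2 this count was 10, and without SCNT-Kdm3a replicate 1 or either SCNT-Kdm4d library it was 0.

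Of the inhibitors given alone, RK-701 had 3 LTR subfamilies of IAPEz elements lower than CC_cont and 0 higher. Among all repeat subfamilies 8.63% were lower and 0.709% higher, so the lower IAP share was not far above the background. When only the compared libraries were fitted, 0 were called. IAPLTR1_Mm had 21 and 31.7 CPM in CC_cont and 13.6, 16.5 and 16.1 CPM in CC_G (RK-701) (-0.77 ± 0.22; edgeR adjusted p = 0.0342). IAPLTR1a_Mm went from 15.9 and 28.2 to 11.1, 15.7 and 14.1 CPM (-0.68 ± 0.21; adjusted p = 0.0459), and IAPLTR2_Mm from 23.1 and 33.9 to 18.6, 17.9 and 19.2 CPM (-0.61 ± 0.19; adjusted p = 0.0415). CC_cont replicate 2 was the higher control in each. Without that library, or without RK-701 replicate 1, 0 subfamilies were called, and without RK-701 replicate 3 it was 1. IAPEz-int, with 158, 188 and 230 CPM against 257 and 293 CPM, was just outside the threshold (-0.52 ± 0.17; adjusted p = 0.0553). The median was -0.05 over the IAP subfamilies and -0.28 over all repeat subfamilies, and with library sizes from repeat reads 1 IAP subfamily was higher and 0 lower.

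TSA alone changed 0 IAP subfamilies in edgeR, where 0.473% of all repeat subfamilies were called, with 1 at an unadjusted p under 0.05 and 1 lower in DESeq2. A366 alone also changed 0 (0.827% of all), with 5 at an unadjusted p under 0.05, 0 in DESeq2 and 21 of 25 log2 differences positive; without CC_cont replicate 2 there was 1. RK-701 and A366 at the same dose and duration differed: 7 IAP subfamilies were lower with RK-701, where 16.8% of all repeat subfamilies were lower, and the medians were close (-0.36 for IAP, -0.33 for all). These were IAPLTR1a_Mm (-1.20), IAPLTR1_Mm (-0.85), IAPLTR2_Mm (-0.85), IAPLTR2a (-0.77), IAPLTR2b (-0.73), IAPEz-int (-0.55) and IAPLTR2a2_Mm (-0.40). With library sizes from repeat reads the split was 1 higher and 2 lower, and without RK-701 replicate 1 or A366 replicate 1 the count was 3 lower. IAPLTR1a_Mm had 33.8 and 28.7 CPM with A366.

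With TSA, CC_TG (UNC0638) exceeded CC_cont in 8 IAP subfamilies and was below it in 0, against 5.44% higher and 5.67% lower among all repeat subfamilies; 0 were called when only the compared libraries were fitted. IAPEY2_LTR reached 91.4 and 70.2 CPM against 30.5 and 43.9 CPM (1.12 ± 0.22; edgeR adjusted p = 0.00206). IAPEY3C_LTR reached 15.6 and 18.2 CPM against 6.25 and 7.08 CPM (1.35 ± 0.27; adjusted p = 0.00206). IAPEY4_I-int had 17.5 and 23.7 CPM against 12.5 and 7.54 CPM (1.02 ± 0.28; adjusted p = 0.0244), and IAPEY3-int 37.8 and 53.4 CPM against 25 and 26.3 CPM (0.83 ± 0.23; adjusted p = 0.0258). The others were IAP1-MM_LTR (1.33), IAPLTR4 (0.81), IAPLTR2b (0.69) and IAPLTR2a2_Mm (0.52). The IAP median was 0.52 and that of all repeat subfamilies -0.19, with 23 of 25 positive. Leaving out a CC_cont library gave 3 higher and 1 lower (replicate 1) or 2 higher (replicate 2), and leaving out a UNC0638 library gave 5 (replicate 1) or 2 (replicate 2). Without the leading copy of each subfamily 4 were called, and IAPLTR2a2_Mm moved by 0.13 (adjusted p = 0.757).

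CC_TG (RK-701) lowered 1 IAP subfamily and raised 0 (19.5% lower and 2.13% higher among all), and CC_TG (A366) lowered 2 and raised 0 (22% lower and 1.89% higher). Both shares lie below the background, and 0 were called for either when only the compared libraries were fitted. IAPEY3_LTR was lower in both: 16.5 and 17.6 CPM in CC_cont, 9.88 and 8.09 CPM with RK-701 (-0.92 ± 0.24; edgeR adjusted p = 0.00886), 9.29 and 10.3 CPM with A366 (-0.80 ± 0.23; adjusted p = 0.0174). IAPEy-int was lower with A366, at 20.1 and 19.7 CPM against 34.4 and 34.7 CPM (-0.79 ± 0.21; adjusted p = 0.00871). These comparisons share the CC_cont libraries. With library sizes from repeat reads the splits became 1 higher and 0 lower for RK-701, and 2 higher and 0 lower for A366. Leaving out CC_cont replicate 1 gave 4 lower for RK-701 and 5 for A366, and CC_cont replicate 2 gave 0 and 1. Leaving out RK-701 replicate 2 or either A366 library gave 0, and leaving out RK-701 replicate 1 gave 2.

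Directly compared at the same doses, CC_TG (UNC0638) was higher than CC_TG (RK-701) in 9 IAP subfamilies, where 4.96% of all repeat subfamilies were higher, and than CC_TG (A366) in 11, where 6.97% were. Against RK-701 these were IAPEY2_LTR (1.30), IAPEY3_LTR (1.29), IAPEY3C_LTR (1.22), IAPEY4_I-int (1.04), IAPEY3-int (0.98), IAPLTR2_Mm (0.95), IAP-d-int (0.95), IAPLTR2b (0.78) and IAPEz-int (0.76). IAPEz-int had 370 and 377 CPM with UNC0638, 209 and 234 CPM with RK-701, and 225 and 240 CPM with A366. The IAP medians were 0.76 and 0.87, against 0.24 and 0.28 for all repeat subfamilies, and with library sizes from repeat reads 4 and 6 were higher. The first count fell to 0 and 3 without RK-701 replicate 1 or 2 and to 5 and 2 without UNC0638 replicate 1 or 2; the second fell to 3 without either A366 library and to 7 and 5 without UNC0638 replicate 1 or 2.

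CC_TG (RK-701) and CC_TG (A366) differed in 0 IAP subfamilies, as in 0% of all, with 1 at an unadjusted p under 0.05 in edgeR and 0 called in DESeq2. The log2 difference was -0.07 for IAPEz-int (95% interval -0.46 to 0.31) and -0.01 for IAPLTR2a2_Mm (-0.33 to 0.30). Other subfamilies were less close: 0.65 for IAPLTR4 (0.13 to 1.16; edgeR unadjusted p = 0.016) and -0.58 for IAP-d-int (-1.16 to 0.0018). The interaction, whether RK-701 or A366 acted differently with TSA than without it, passed the test in no single IAP subfamily. It called 0 for RK-701 (0% of all, with 4 IAP subfamilies at an unadjusted p under 0.05) and 0 for A366 (6.62% of all, with 7). DESeq2 called 0 for both. For A366 the median interaction was -0.49 over the IAP subfamilies, 20 of 25 being negative, and also -0.49 over all repeat subfamilies. For RK-701 the medians were 0.07 and -0.12, with 16 of 25 IAP subfamilies positive. Without CC_cont replicate 2 the A366 interaction called 4 IAP subfamilies, and without CC_T replicate 2 it called 1.

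**Figure D4:**
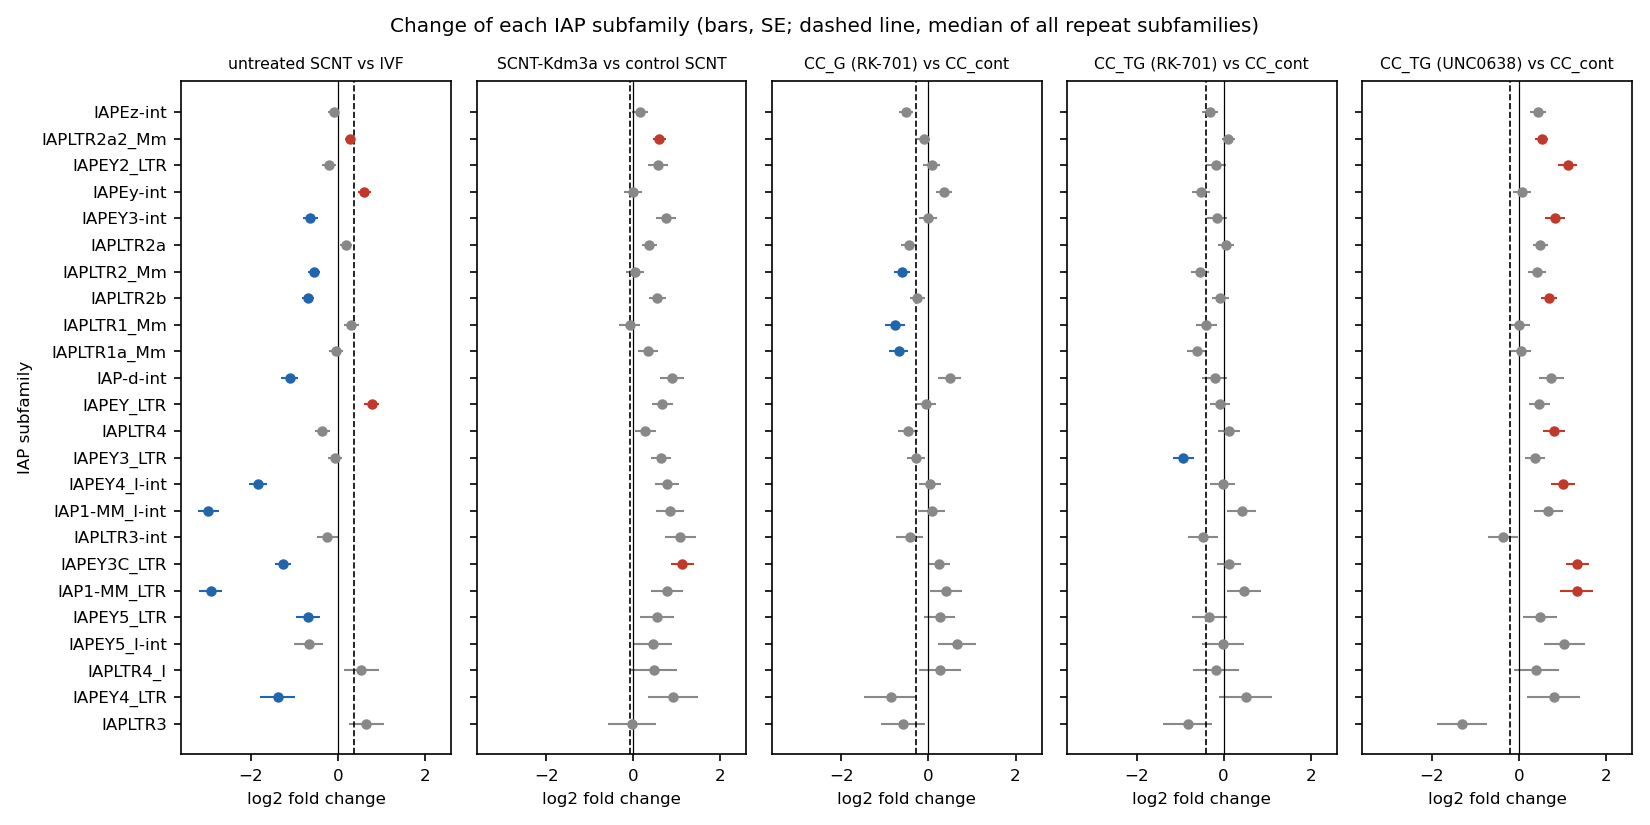
Log2 difference (horizontal axis, bars ± SE) of 24 IAP subfamilies in 5 comparisons, without the rare IAPA_MM-int; red is higher and blue lower at an edgeR adjusted p under 0.05, grey did not pass, and the dashed line is the median of all repeat subfamilies. Points of SCNT-Kdm3a and CC_TG (UNC0638) lie mostly to the right of that line, and those of untreated SCNT against IVF mostly to its left.

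Set against IVF, treated embryos remained lower in IAP1-MM subfamilies. SCNT-Kdm3a was lower in IAP1-MM_I-int (-1.95), IAP1-MM_LTR (-1.82) and IAPEY4_I-int (-1.0), 3 subfamilies where 1.65% of all were lower, and higher in 5, IAPEY_LTR (1.38), IAPLTR2a2_Mm (0.92), IAPEy-int (0.82), IAPLTR2a (0.67) and IAPEY3_LTR (0.59), where 23.4% were higher. CC_TG (UNC0638) was lower in the same 3, IAP1-MM_I-int (-2.49 ± 0.30), IAP1-MM_LTR (-1.94) and IAPEY4_I-int (-0.89), where 2.01% of all were lower, and higher in 4, IAPEY_LTR (1.30), IAPEY2_LTR (0.83), IAPLTR2a2_Mm (0.75) and IAPLTR2a (0.56), where 5.56% were. SCNT-Kdm4d had 2 higher and 5 lower (3.55 and 3.9% of all), and CC_TG (RK-701) 1 higher and 11 lower (3.07 and 6.97% of all). With library sizes from repeat reads the splits were 2 higher and 6 lower for SCNT-Kdm3a, 2 and 9 for SCNT-Kdm4d, 2 and 11 for CC_TG (RK-701), and 3 and 3 for CC_TG (UNC0638). Without SCNT-Kdm3a replicate 1 that group had 2 higher and 3 lower, without CC_TG (RK-701) replicate 2 that group had 0 and 7, and without UNC0638 replicate 1 that group had 2 and 2. The SCNT-Kdm4d count of 7 fell to between 3 and 4 without IVF replicate 2, 3 or 4 or either SCNT-Kdm4d library. These comparisons share the IVF libraries.

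Single copies differed in both directions. Only 158 autosomal IAP copies had a mean of at least 10 reads, and they held 49.0% of the IAP reads, so the counts describe these copies alone. A copy that reached this mean only through the group where it was high had to differ, and is given below by its reads with no test. Between untreated SCNT and IVF embryos 25 were higher and 33 lower, against 16.7 and 14% of all repeat copies tested. The share of higher IAP copies was thus close to that of all repeat copies, and this count shows nothing particular to IAP. Of the 25 higher copies 10 were IAPEz-int and 4 IAPEy-int, and of the 33 lower ones 6 were IAPEz-int and 5 IAPEY2_LTR, so IAPEz-int held copies of both directions. Positions are in mm10.

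Neighbouring IAPLTR2_Mm copies on chromosome 7, about 7 kb from Trim30d, were read in IVF and had 0 to 3 reads in the untreated SCNT libraries. Both reached the mean of 10 reads only through IVF. The copy at chr7:104514835-104515060, 6986 bases from the gene, had 25, 55, 86 and 74 reads in IVF and 0 in all 4 untreated SCNT libraries. It had 28 and 7 reads in SCNT-Kdm3a, 14 and 44 in SCNT-Kdm4d (at least 7.95-fold above control SCNT against a floor of 3 reads per library; edgeR adjusted p = 0.0311), and 32 and 23 in CC_TG (UNC0638) (at least 9.49-fold above CC_cont; adjusted p = 0.0113). In the other treated groups it had at most 4 reads. The second copy, chr7:104515105-104515386, had 28, 52, 64 and 92 reads in IVF and 3 in all in the untreated SCNT libraries. It had 19 and 59 reads in SCNT-Kdm4d, at least 10.7-fold above control SCNT (adjusted p = 0.0432), and 50 and 29 in CC_TG (UNC0638).

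An IAP1-MM_I-int copy at chr17:34545264-34546257, within the span of the pseudogene Btnl7-ps, had 34, 62, 80 and 56 reads in IVF, 0 in the untreated SCNT, SCNT-Kdm3a and SCNT-Kdm4d libraries and at most 9 elsewhere. An IAPEz-int copy at chr12:19710429-19711976, 5862 bases from Gm48636, had 12, 89, 170 and 63 reads in IVF and 0 in the untreated SCNT libraries. Both reached the mean of 10 reads only through IVF. The second was also read in SCNT-Kdm4d (17 and 22) and CC_TG (UNC0638) (14 and 18).

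Among higher copies with 10 or more reads in each untreated SCNT library, the 3 with the greatest log2 difference were all of IAPEz-int. At chr12:44152090-44155075, 26490 bases from Gm47056, there were 1, 0, 1 and 0 reads in IVF, 23 and 17 in control SCNT, and 38 and 19 in CC_cont; it reached the mean of 10 reads only through the untreated SCNT libraries. At chr9:32079321-32080175, 556 bases from Gm47496, there were 2, 0, 3 and 2 reads in IVF against 18 and 33 in control SCNT and 12 and 17 in CC_cont (3.37 ± 0.68; edgeR adjusted p = 0.00120). At chr14:21360818-21364534, within the span of Adk, which encodes adenosine kinase, there were 4, 12, 0 and 3 reads in IVF against 76 and 44 in control SCNT and 19 and 31 in CC_cont (3.08 ± 0.70; adjusted p = 0.00321). Reads on a copy inside a gene can come from that gene's unspliced transcript, and the libraries did not keep strand. The choice of these copies by their difference and their reads favours groups that do not overlap, as was the case for all 3.

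**Figure D5:**
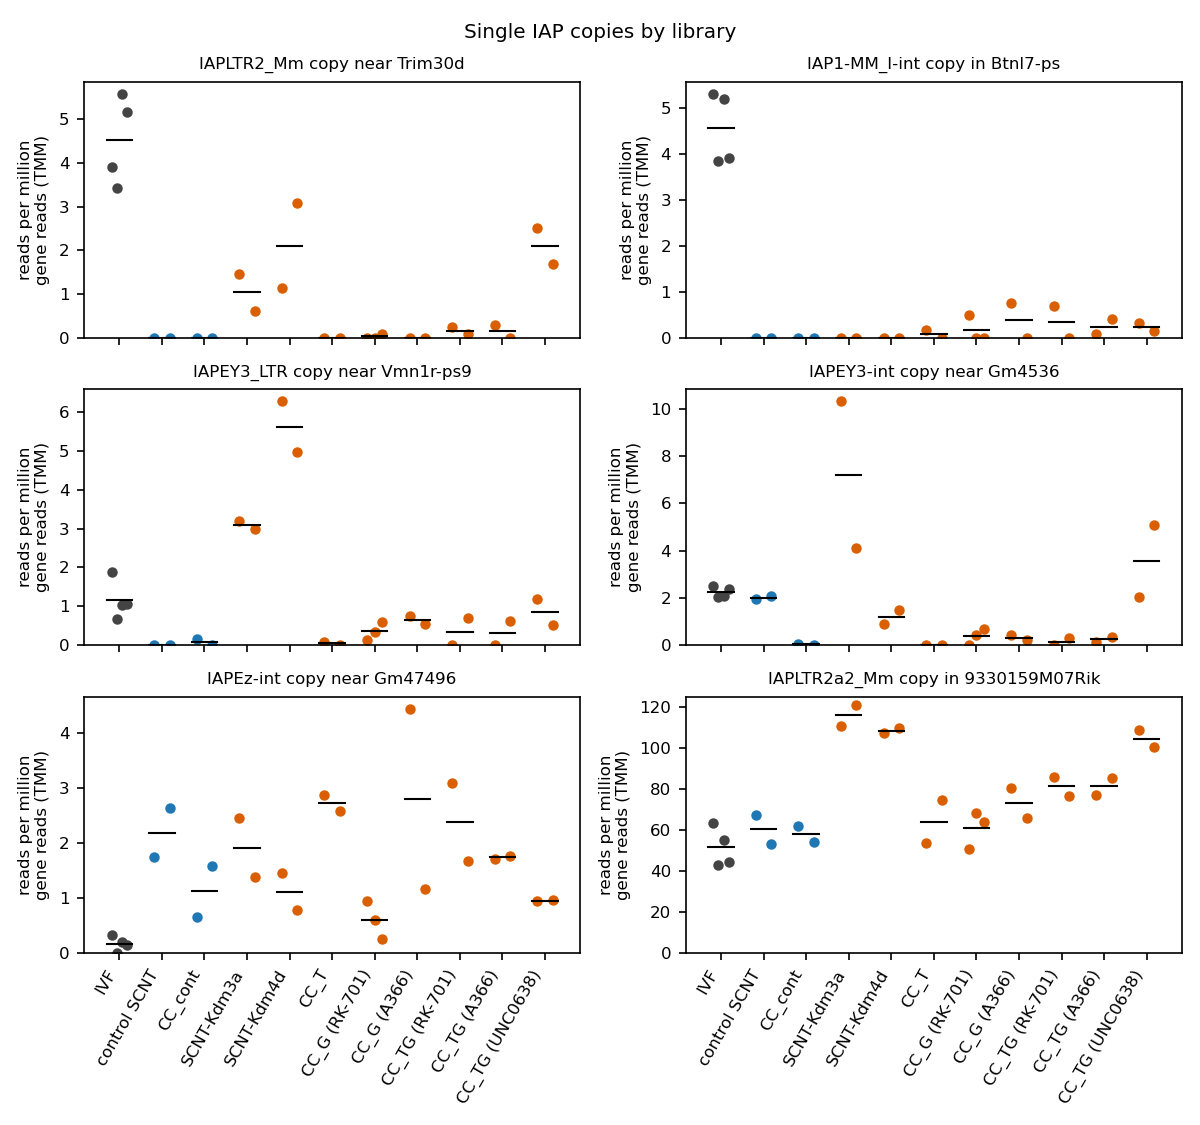
Level of 6 single IAP copies in each library (dots, CPM of gene reads; black bars, group means), each panel named by its subfamily and its nearest or containing gene. The IAPLTR2_Mm copy near Trim30d is read in IVF, SCNT-Kdm3a, SCNT-Kdm4d and CC_TG (UNC0638) and is at 0 in all 4 untreated SCNT libraries, whereas the IAP1-MM_I-int copy in Btnl7-ps is read mainly in IVF.

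Kdm3a mRNA raised 7 of the 158 copies and lowered 0 (1.8% of all repeat copies were higher). The IAPEY3_LTR copy at chr6:57295146-57295477, 16490 bases from Vmn1r-ps9, had 61 and 35 reads against 0 and 0 in control SCNT and 12, 11, 16 and 15 in IVF (at least 11.7-fold higher than control; edgeR adjusted p = 0.0259). An IAP1-MM_I-int copy at chr1:5345429-5346348, 35412 bases from Gm37567, had 72 and 41 reads against 0 and 0 (at least 13.7-fold; adjusted p = 0.0457), and 29, 75, 61 and 49 in IVF. An IAPEz-int copy at chr13:111500053-111502251, in the span of Gm49496, had 39 and 28 reads against 3 and 1 (3.56 ± 0.93; adjusted p = 0.0488). Leaving out 1 library lowered the count of 7 to between 0 and 2: it was 2 without either control, 0 without SCNT-Kdm3a replicate 1 and 1 without replicate 2.

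In SCNT-Kdm4d 3 copies were called higher than in control SCNT and 0 lower (0.7% of all were higher). They were the neighbouring copies near Trim30d and the copy near Vmn1r-ps9. The latter had 78 and 71 reads, above the 0 of control SCNT and above the IVF reads. It reached the mean of 10 reads only through SCNT-Kdm4d and so had to differ, and its call is no support. The copies near Trim30d lie side by side on the same strand and may not be independent. Without either control SCNT library or SCNT-Kdm4d replicate 2 none was called, and without replicate 1 it was 1.

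In the inhibitor groups few copies passed. With RK-701 alone 1 copy was lower (1.03% of all), IAPEz-int at chr3:96489585-96492855, 692 bases from the small nuclear RNA gene Gm22614. It had 63 and 57 reads in CC_cont and 0, 1 and 6 with RK-701, but only 3 and 1 in control SCNT, and reached the mean of 10 reads only through CC_cont. Leaving out CC_cont replicate 2 or any RK-701 library gave 0 copies, and leaving out CC_cont replicate 1 gave 5 higher and 5 lower. With TSA and RK-701, 1 copy was higher and 1 lower, where 1.85% of all changed in either direction. IAPLTR2b at chr13:99002210-99002530, 4569 bases from A930014D07Rik, had 3 and 2 reads in CC_cont and 21 and 43 with co-treatment (3.67 ± 0.64; edgeR adjusted p = 0.00631). It was also higher than CC_cont with TSA (26 and 19 reads; 3.25), A366 (25 and 26; 3.42), TSA and A366 (28 and 32; 3.52) and TSA and UNC0638 (27 and 30; 3.57), at adjusted p of 0.0392, 0.0228, 0.00621 and 0.00561. With RK-701 alone it had 15, 9 and 6 reads and did not pass (2.04; adjusted p = 0.0847). These comparisons share the CC_cont libraries, where the copy had its lowest group mean, 0.175 CPM. Its mean was 0.521 CPM in control SCNT (5 to 7 reads) and 0.610 CPM in IVF (5 to 10 reads). In SCNT-Kdm3a it was 1.47 CPM and in SCNT-Kdm4d 1.64 CPM. IAPEz-int at chr14:105971426-105977843, 74607 bases from Spry2, had 37 and 46 reads in CC_cont, 5 and 6 with RK-701 and TSA (-2.93 ± 0.60; adjusted p = 0.0166), and 1 and 6 with A366 and TSA. Without RK-701 replicate 2 none of the co-treatment calls was made, without CC_cont replicate 2 only the IAPLTR2b copy was called, and the call of the IAPEz-int copy was also lost without RK-701 replicate 1.

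With TSA and UNC0638, 12 copies were higher than in CC_cont and 0 lower (2.91% of all were higher), 3 of them IAPEY2_LTR, 2 IAPEY3-int and 2 IAPEz-int. Of these, both IAPEY3-int copies are described here, chosen after their values were seen. The copy at chr7:26887697-26894795, 22586 bases from Cyp2a21-ps, had 0 and 0 reads in CC_cont and 42 and 16 with UNC0638 (at least 10.1-fold; edgeR adjusted p = 0.0268), with 1 and 20 in control SCNT and 6, 23, 17 and 22 in IVF. The copy at chr7:21231863-21239455, 1666 bases from Gm4536, had 1 and 0 reads in CC_cont and 26 and 69 with UNC0638, a rate 105 times higher (95% exact counting interval 18.4 to 4191; adjusted p = 0.0106). It had 20 and 26 reads in control SCNT and 197 and 48 in SCNT-Kdm3a, so it was near 0 in CC_cont but not in the other untreated group. Without CC_cont replicate 2 the count of 12 was 4, and without either UNC0638 library it was 7. The first call was lost without either CC_cont library or UNC0638 replicate 1, the second without CC_cont replicate 2 or UNC0638 replicate 2, and that of the copy near Trim30d without either CC_cont library.

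The most-read IAP copy, IAPLTR2a2_Mm at chr9:88841036-88841584, lies within the spans of Trim43c and 9330159M07Rik, on the strand of the latter, without overlapping an exon. As the libraries did not keep strand, its reads can also come from unspliced transcripts of either gene, which was not tested. The copy had 63.4, 42.5, 55.1 and 44.1 CPM in IVF, 67 and 53.1 CPM in control SCNT, and 61.9 and 53.8 CPM in CC_cont. SCNT-Kdm3a had 111 and 121 CPM, SCNT-Kdm4d 107 and 109 CPM, and CC_TG (UNC0638) 109 and 100 CPM. These 6 libraries lay above all others, whose highest was 85.7 CPM in CC_TG (RK-701). The log2 difference from the own control was 0.95 ± 0.26 for Kdm3a (edgeR adjusted p = 0.0567), 0.85 ± 0.25 for Kdm4d (adjusted p = 0.116) and 0.85 ± 0.25 for UNC0638 (adjusted p = 0.0691), none past the threshold. From IVF it was 1.18, 1.08 and 1.03, each past it (adjusted p = 0.00226, 0.00587 and 0.00800).

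Genes that silence IAP elements or act on their marks were read from a list of 32, all of which could be tested. Between untreated SCNT and IVF embryos 6 were higher and 9 lower, against 14 and 15.2% of all genes. Ehmt2, which encodes G9a itself, rose most, from a mean of 10.1 ± 0.931 CPM in IVF (SD, n = 4) to 31.5 CPM in control SCNT and 30.6 CPM in CC_cont (1.61 ± 0.18; edgeR adjusted p = 1.37e-07). Also higher were Ehmt1 (0.62), the histone chaperone subunits Chaf1a (0.68) and Chaf1b (0.94), the maintenance DNA methyltransferase Dnmt1 (0.66) and the demethylase Kdm1a (0.70). Lower were Setdb1 (-0.54), the HUSH complex genes Mphosph8 (-0.81) and Pphln1 (-0.79), Kdm4a (-0.80), Cbx1 (-0.74), Tet3 (-0.69), Uhrf1 (-0.64), the imprint-binding factor Zfp57 (-0.58) and Tet1 (-0.47). Trim28, at 170 ± 9.17 CPM in IVF, 190 CPM in control SCNT and 201 CPM in CC_cont, did not pass (0.20 ± 0.11; adjusted p = 0.209).

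Of these genes, SCNT-Kdm3a had 3 higher and 2 lower (6.14% of all genes changed): the injected Kdm3a itself, Smarcad1 (0.74) and the HP1 gene Cbx5 (0.67), and Dnmt3b (-1.49) and Dnmt1 (-0.65). SCNT-Kdm4d had 6 higher and 0 lower (3.88% of all genes higher): Kdm4d itself, Pphln1 (1.04), Cbx5 (0.95), Dnmt3a (0.76), Smarcad1 (0.65) and Mphosph8 (0.62). In each of these groups the injected gene had to be higher, so its call is no support. RK-701 alone had Kdm4a higher (1.30) and Ehmt1 lower (-0.71), where 5.48% of all genes changed. With TSA and RK-701, Pphln1 (1.13), Smarcad1 (1.04) and Cbx3 (0.65) were higher and Dnmt3b (-1.28) lower (9.63% of all genes). For RK-701 alone and with TSA, the share of list genes called was not far above that of all genes. These counts therefore show nothing particular to the list. With TSA and UNC0638, Kdm4a (1.13), Smarcad1 (0.98), Morc3 (0.79), Cbx5 (0.78) and Atf7ip (0.69) were higher and Dnmt3b (-1.74) lower (8.97% of all genes). Dnmt3b, a de novo DNA methyltransferase, had a mean of 13.2 CPM in control SCNT and 16.2 CPM in CC_cont. Its mean was 4.68 CPM in SCNT-Kdm3a, 6.67 CPM in CC_TG (RK-701) and 4.87 CPM in CC_TG (UNC0638). It was also low in SCNT-Kdm4d, at 5.80 CPM without a call, and in CC_TG (A366), at 7.04 CPM. CC_T, CC_G (RK-701) and CC_G (A366) had 11.9, 12.1 and 16.0 CPM. Leaving out 1 library moved these counts: without CC_cont replicate 2 there were 0 with RK-701, 1 with TSA and RK-701 and 2 with TSA and UNC0638, and without CC_cont replicate 1 there were 5 with RK-701 and 7 with TSA and RK-701. Without control SCNT replicate 1 there were 2 in SCNT-Kdm3a and 1 in SCNT-Kdm4d, and without control SCNT replicate 2 there were 3 in SCNT-Kdm3a. Leaving out treated replicate 1 or 2 left 2 or 1 in SCNT-Kdm3a, 3 or 2 in SCNT-Kdm4d and 2 either way with TSA and RK-701. It was 1 without RK-701 replicate 1 or 3, and 2 without UNC0638 replicate 1.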

How the data were processed

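RNA of the 25 embryo pools was amplified with SMART-Seq HT, which captures polyadenylated RNA and does not keep strand. Per the study's methods the authors trimmed reads with Trimmomatic and aligned them to mm10 with STAR, keeping unique alignments only. The deposited counts are whole reads per gene and per repeat copy from featureCounts (1.6.2 in the header of the deposited counts), not normalized. Gene names came from GENCODE M21 for 55134 of 55375 identifiers, which also gave gene spans and exons.

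Copies of all repeats were summed by subfamily over autosomes, with gene reads as library size and TMM factors (0.883 to 1.16) from genes. edgeR 4.0.16 (R 4.3.3, limma 3.58.1) fitted all 25 libraries without covariates by quasi-likelihood, for 846 subfamilies and 25794 genes whose mean over libraries reached 1 read and 24153 copies whose mean reached 10, with Benjamini-Hochberg adjustment over each. Common dispersions were 0.0461, 0.136 and 0.269 for subfamilies, genes and copies. The scripts were tested on simulated data. Summed levels were compared by exact permutation tests in Python 3.11.15 (pandas 2.3.3, numpy 2.4.6). A level of 0 was replaced by a floor of 3 reads for bounds, and 95% counting intervals cover counting error only.

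Alternatives were relative log expression factors, library size from repeat reads, no filter or a mean of 5 reads for copies, DESeq2 1.42.0, only the compared libraries, a replicate block, sex chromosomes, copies outside gene spans, a fold over 2 and leaving out each library. Values were named for the 5 subfamilies with the highest level, for up to 3 called subfamilies and copies per direction in 5 comparisons (untreated SCNT against IVF, Kdm3a, Kdm4d, RK-701, and TSA with RK-701), the copies needing 10 or more reads throughout the higher group, and for the gene list. The members and lists were chosen with earlier results of these data known. Replicates are separate pools, and the labels give no batch. The edgeR p-values rest on a spread between pools that was estimated over all 11 groups and moderated over subfamilies, genes or copies. As most groups have 2 libraries, it is not the spread of the compared pools alone. No fold change deposited by the authors was used.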

Additional observations from a re-analysis of the deposited data

Results flagged for a closer look

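In the IVF group, 27 summed levels (25 subfamilies, the total and its ratio to other ERVK copies) were examined for a library far from the other 3, and 3 stood apart (by Dixon's test at the 95% level, which chance passes in about 1 of 20 groups). IAPA_MM-int was at 1.87 CPM in 1 library, from 12 reads, with the next library at 0.248 CPM. IAPEY3-int was at 49.1 CPM in 1 library, above the next at 44.8 CPM, and IAPLTR2a was at 23.0 CPM in 1 library, below the next at 27.5 CPM.

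Chromosome Y was left out of the comparisons. There, an IAPLTR3-int copy at chrY:78122965-78125653 had 311 and 373 CPM (3704 and 5429 reads) in the libraries of CC_G (A366), against 1.79 and 12.5 CPM in CC_cont and 1.95 to 18.2 CPM in the remaining libraries. It held 98.4 and 98.7% of the reads on Y-linked IAP copies in the A366 libraries. The SCNT nuclei were female, and whether these reads came from chromosome Y could not be checked from the counts. The cause was not tested.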

How the results depend on the processing

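Counts are of IAP subfamilies called, higher and lower together, against the reference in use. A fold over 2 gave 7 for untreated SCNT against IVF, 1 for Kdm3a, 4 for TSA with UNC0638, 1 for RK-701 against A366, 4 and 7 for UNC0638 against RK-701 and against A366 with TSA, 4, 3 and 3 for Kdm3a, Kdm4d and UNC0638 against IVF, and 0 for Kdm4d, Kdm4d against Kdm3a, RK-701 and both other co-treatments.
Relative log expression factors gave 4 for TSA with RK-701, 4 for TSA with A366 and 11 for Kdm4d against IVF. Library size from repeat reads gave 8 for Kdm3a, 4 for Kdm4d, 0 for Kdm4d against Kdm3a, 1 for RK-701, 3 for RK-701 against A366, 4 and 6 for UNC0638 against the other co-treatments and 11 for Kdm4d against IVF; it reversed IAPLTR2a2_Mm in untreated SCNT against IVF (-0.13, adjusted p = 0.330). Without a filter there were 6 for Kdm3a, 4 for Kdm4d, and 1 each for CC_cont against control SCNT, TSA and the TSA by A366 interaction. DESeq2 gave 5 for Kdm4d, 8 for Kdm4d against Kdm3a, 1 for TSA, 4 for each of the TSA co-treatments with RK-701 and A366, and 12 for Kdm4d against IVF. With the compared libraries only there were 0 for Kdm3a, Kdm4d against Kdm3a, RK-701 and all 3 co-treatments, 4 for Kdm4d, 14 for UNC0638 against RK-701 with TSA and 15 for Kdm4d against IVF. Sex chromosomes gave 1 for A366 and 1 for the interaction, and copies outside gene spans 1 for RK-701 and 1 for TSA with A366. Without the leading copy of each subfamily, chosen after seeing the data, there were 1 for Kdm4d, 3 for TSA with RK-701, 4 for UNC0638, 1 for the interaction, and 4 and 3 for Kdm4d and UNC0638 against IVF.

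Replicate numbers showed no pairing of the libraries: of 110 same-numbered pairs 3 had a correlation of deviations above 0.1 and 16 below -0.1 (range -0.261 to 0.183). Between groups of 2 libraries, replicates 1 and 2 give the same correlation, so the 110 pairs hold duplicates and are not independent. With a replicate block there were 0 subfamilies for Kdm4d against Kdm3a, 0 for RK-701 and 3 for Kdm4d against IVF; 0 copies for Kdm3a, Kdm4d and RK-701; and 3, 1 and 2 silencing genes for Kdm3a, RK-701 and TSA with RK-701. Relative log expression factors gave 4 copies and a mean of 5 reads 2 copies for Kdm3a, a mean of 5 reads 0 copies for RK-701, and DESeq2 5 genes for RK-701.

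The log2 ratio of the summed level for Kdm4d was -0.13 with relative log expression factors, 0.26 scaled to repeat reads and -0.19 without leading copies. Scaled to repeat reads it was 0.12 for RK-701, 0.013 for A366, 0.091 and 0.14 for TSA with RK-701 and A366, and 0.54 and 0.49 for UNC0638 against these. It was 0.64 for A366 with sex chromosomes, which include the chromosome Y copy given above. For UNC0638 against RK-701 and A366 with TSA it was 0.80 and 0.81 outside gene spans and 0.80 and 0.77 without leading copies. The ratio to other ERVK copies for UNC0638 was 0.28 outside gene spans and 0.51 without leading copies.

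Leaving out 1 library gave 0 to 6 subfamilies for Kdm3a, 0 to 1 for Kdm4d, 0 to 10 for Kdm4d against Kdm3a, 0 to 1 for CC_cont against control SCNT, 0 to 4 for RK-701, 0 to 1 for A366, 3 to 6 for RK-701 against A366, 0 to 4, 0 to 5 and 2 to 5 for TSA with RK-701, A366 and UNC0638, 0 to 5 and 3 to 7 for UNC0638 against the other 2, 0 to 4 for the TSA by A366 interaction, and 5 to 10, 3 to 6, 7 to 12 and 4 to 7 for Kdm3a, Kdm4d, TSA with RK-701 and UNC0638 against IVF. It gave 0 to 2 copies for Kdm3a, 0 to 1 for Kdm4d, 0 to 10 for RK-701, 0 to 3 for TSA with RK-701, 4 to 9 for UNC0638 and 2 to 4 for RK-701 against A366, and 1 to 3, 1 to 4, 0 to 5, 1 to 7 and 2 to 9 genes for Kdm3a, Kdm4d, RK-701, TSA with RK-701 and UNC0638. The summed level ranged from -0.29 to -0.20 for untreated SCNT, 0.22 to 0.53 for Kdm3a, -0.10 to -0.015 for Kdm4d, -0.38 to -0.14 for RK-701, 0.048 to 0.29 for A366, -0.14 to 0.24 for TSA, -0.32 to -0.080 and -0.32 to -0.083 for TSA with RK-701 and A366, and 0.39 to 0.64 for UNC0638. Over 95 single subfamilies, copies and genes, 823 of 1082 alternative values kept their side of the threshold, 258 kept only their direction and 1 reversed. The cause of these changes was not tested. Copies with under a mean of 10 reads, 9149 of them without any, were beyond what this depth could compare.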
